A study of Mus musculus domesticus and Mus musculus domesticus x Mus musculus castaneus and Mus musculus castaneus with 27 samples.

Results

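CAST/EiJ (CAST) and C57BL/6 (BL6) pluripotent stem cells (PSC) were compared at the level of poly(A) RNA, with 2 libraries of CAST PSC against 2 of BL6 PSC. These 4 libraries, chosen by their labels, are 4 of 20 analysed from a series that also holds motor neurons (MN). The series describes the transcriptional identity of the lines used to model species variation in neurite growth. CAST is a wild-derived inbred strain, of castaneus mice, and BL6 is the common laboratory strain of the domesticus subspecies. The 2 libraries of CAS129 PSC, from a first-generation hybrid of the domesticus and castaneus subspecies named for CAST and 129, entered the same fit and served to estimate the spread. The other cell type was read in 1 CAST MN library and 7 BL6 MN libraries. Their fit also held 2 libraries of 129 MN (129S6/SvEv), 3 of CAS129 MN and 1 of 129CAS MN, a first-generation hybrid of the same subspecies. No agent, transgene or Cre is named for any of these groups, and their culture medium, passage, sex and number of clones are not stated in the labels. The labels do not say that libraries of a group came from separate cultures, so the p-values measure the spread between these libraries, which may be technical.

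Mouse stem cells of this kind move between a naive state, held by LIF and by transcription factors that also act in early germ cells, and a formative or primed state, in which FGF signalling through ERK prepares cells for differentiation. Naive genes include Zfp42 and Dppa3, and ERK activity switches on a set of immediate target genes, among them the Ets factor Etv4 and the feedback inhibitors Spry4 and Dusp6. Tdgf1 is a membrane-anchored co-receptor of the growth factor Nodal. Slc7a11 carries cystine into the cell for glutathione synthesis, and Hspb1 is a small heat shock protein.

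Levels are CPM, that is read counts of a gene brought to the same library size, and are given for CAST PSC 1 and 2 and then for BL6 PSC 1 and 2. Differences are log2 of CAST PSC over BL6 PSC with their standard error (SE), n = 2 each. Adjusted p-values are from edgeR's quasi-likelihood test, 2-sided, with Benjamini-Hochberg adjustment over all genes tested, and a gene is called where this value is under 0.05. Levels in motor neurons are given as the value of the CAST MN library against the range and median of the 7 BL6 MN libraries. CPM is not scaled by gene length, so levels are compared between libraries and not between genes. Positions are whole annotated genes on GRCm38.

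The libraries held 8723599 and 8389385 counts in CAST PSC, against 12993761 and 13620056 counts in BL6 PSC. The cells carried stem cell transcripts in all 4 libraries: Pou5f1, a transcription factor that maintains pluripotency, had 1229 and 1784 CPM in CAST PSC, against 696 and 1551 CPM in BL6 PSC. Sox2, its partner, had 497 and 389 CPM in CAST PSC, against 606 and 657 CPM in BL6 PSC. Neither was called (log2 0.42, SE 0.42, adjusted p = 0.55 for Pou5f1; log2 -0.51, SE 0.28, adjusted p = 0.29 for Sox2). Of 11 motor neuron genes listed, 4 passed the filter on low counts and none was called in edgeR, while 1 had an unadjusted p under 0.05 and was lower in DESeq2. The 4 genes that passed summed to 7.06 to 10.5 CPM in CAST PSC, against 28 to 39.8 CPM in BL6 PSC. Tubb3, a neuronal tubulin, had 80.2 and 43.7 CPM in CAST PSC, against 60.8 and 63.4 CPM in BL6 PSC. The CAST pair was close, with 5.38% of 10634 genes differing over 2-fold between its libraries, while 15.9% did so between the BL6 libraries. The BL6 libraries also differed from each other by the base composition of the genes. In the fifth of the genes with the lowest GC content in their exons (median 41.8%), BL6 PSC 1 was higher than BL6 PSC 2 by a median log2 of 0.78, and in the fifth with the highest (median 58.3%) it was lower, with a median log2 of -0.46. CAST PSC over BL6 PSC had medians of 0.51 and -0.39 in the same gene groups, and CAST PSC 1 over CAST PSC 2 had -0.02 and -0.05. Median log2 differences of whole chromosomes ran from -0.20 to 0.23, while BL6 PSC 1 over BL6 PSC 2 reached 0.32 in the X chromosome. With offsets per class of GC content 1887 genes were called between the strains.

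**Figure D1:**
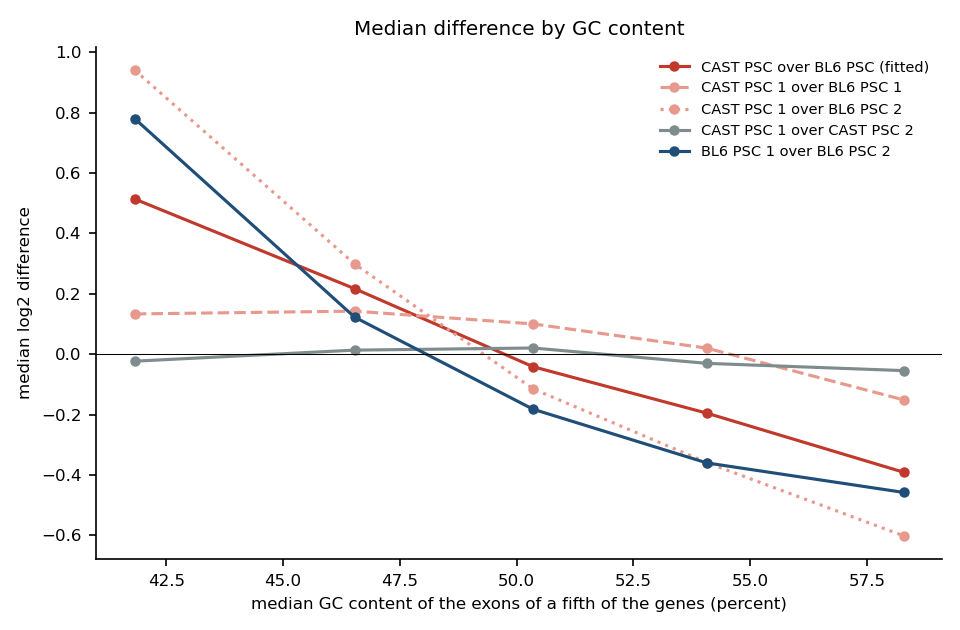
Median log2 difference (vertical axis) against the median exon GC content in percent (horizontal axis) of 5 equal groups of genes, for the fitted difference of CAST PSC over BL6 PSC and for single pairs of libraries. The line of BL6 PSC 1 over BL6 PSC 2 runs from 0.78 to -0.46, the fitted line from 0.51 to -0.39, and the line of CAST PSC 1 over CAST PSC 2 stays near 0.

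CAST PSC and BL6 PSC differed in 1455 of 13795 genes tested (10.5%), with 792 higher in CAST PSC (5.74%) and 663 lower (4.81%). Every called gene differed more than 2-fold, 643 differed more than 8-fold and 362 more than 32-fold. The median log2 difference of all genes tested was 0.0076. Where both strains averaged at least 1 CPM, 979 of 12043 genes were called (8.13%), 477 higher (3.96%) and 502 lower (4.17%), with a median absolute log2 difference of 2.06 among the called. The count rested on which libraries were in: 226 genes were called without CAST PSC 1, 368 without CAST PSC 2, 656 without BL6 PSC 2 and 2105 without BL6 PSC 1.

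The 4 marker genes of this comparison, all of them called, separated the strains without overlap. The share of all genes that do so with 2 libraries a strain was not counted, here or for the genes below. A call in the same libraries makes such a separation likely, so it is no further support. Zfp42, a zinc finger protein of naive cells, had 542 and 474 CPM in CAST PSC, against 56.6 and 82.3 CPM in BL6 PSC. Tdgf1 had 178 and 125 CPM in CAST PSC, against 1122 and 1016 CPM in BL6 PSC. Zfp42 was thus higher in both CAST libraries (log2 2.87, SE 0.32, adjusted p = 0.0014) and Tdgf1 lower in both (log2 -2.82, SE 0.32, adjusted p = 0.0014). Slc7a11 had 400.1 and 358 CPM in CAST PSC, against 1.32 and 0.564 CPM in BL6 PSC. Hspb1 had 1.06 and 0.524 CPM in CAST PSC, against 431 and 629 CPM in BL6 PSC. Each of these genes was close to 0 in one strain and high in the other (log2 8.62, SE 0.54, adjusted p = 0.00016 for Slc7a11; log2 -9.35, SE 0.52, adjusted p = 0.00015 for Hspb1). In the hybrid Zfp42 (784 and 707 CPM in CAS129 PSC), Slc7a11 (342 and 220.3 CPM in CAS129 PSC) and Hspb1 (3.82 and 5.4 CPM in CAS129 PSC) were nearer CAST than BL6, and Tdgf1 (948 and 930.5 CPM in CAS129 PSC) was nearer BL6. Zfp42 and Tdgf1 were called under each of 17 alternative settings, and Slc7a11 and Hspb1 under the 16 that tested them, since removing genes under 1 CPM in a genotype dropped both. Their genes are Zfp42 (ENSMUSG00000051176, chr8:43295063-43306980), Tdgf1 (ENSMUSG00000032494, chr9:110939603-110946158), Slc7a11 (ENSMUSG00000027737, chr3:49892526-50443614) and Hspb1 (ENSMUSG00000004951, chr5:135887919-135889563).

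**Figure D2:**
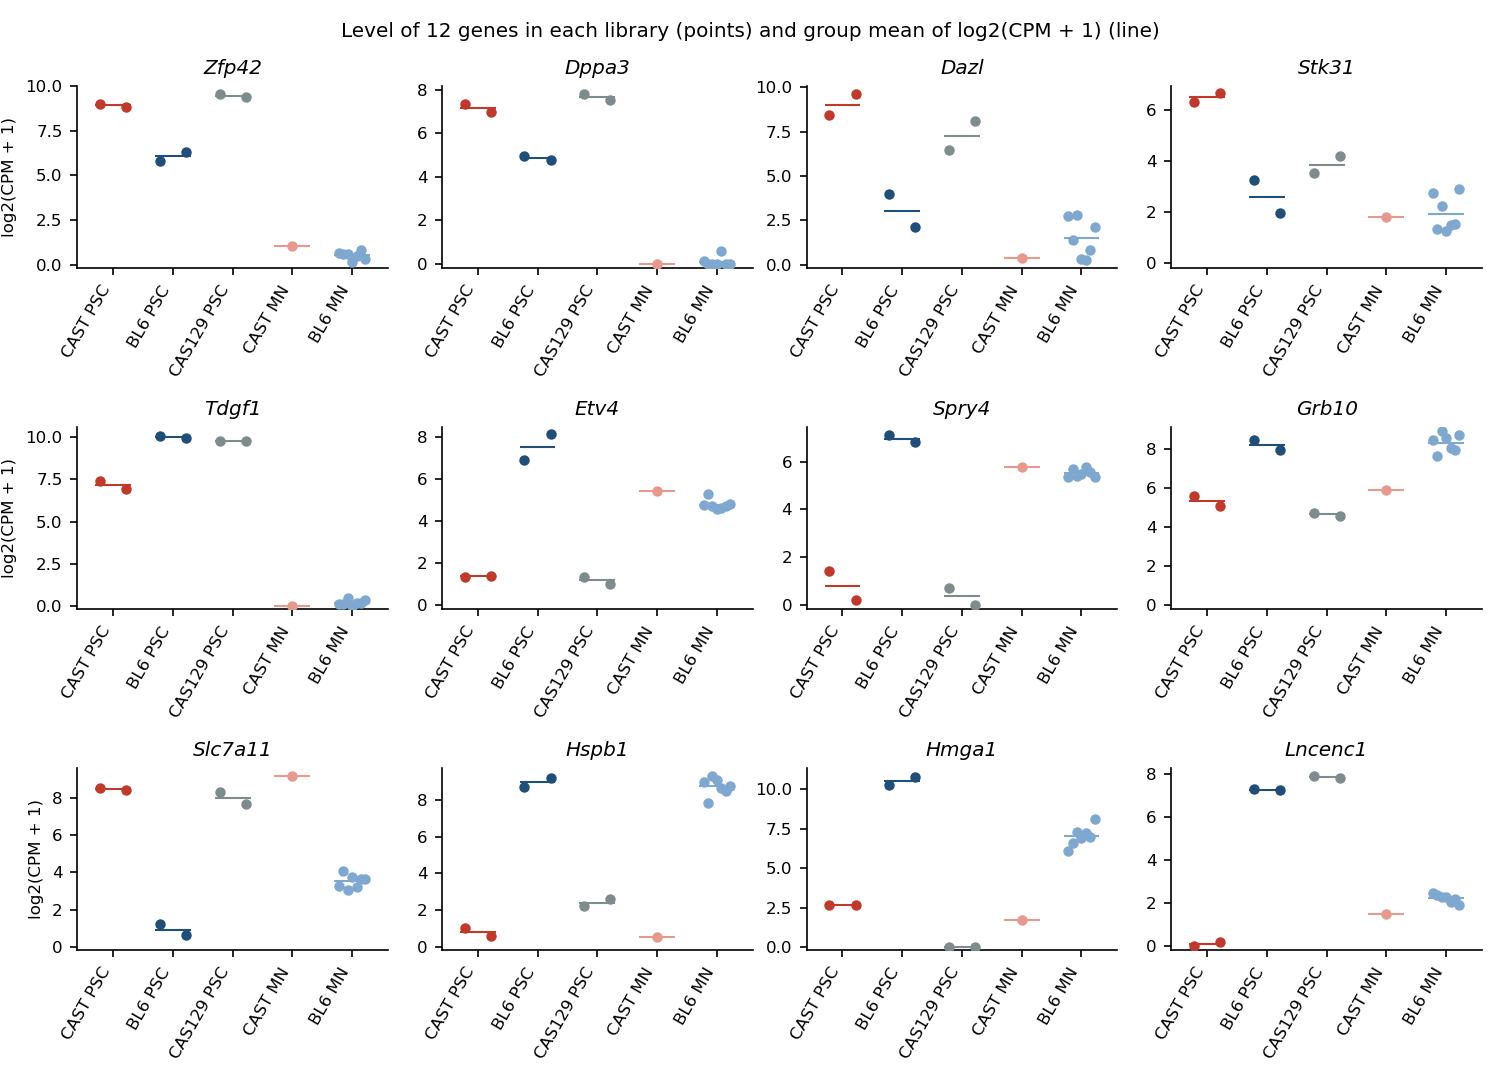
Level of 12 genes as log2(CPM + 1), scaled over all 20 libraries, in CAST PSC (2 libraries), BL6 PSC (2), CAS129 PSC (2), CAST MN (1) and BL6 MN (7). Points are libraries and lines are group means of log2(CPM + 1). All 12 genes were called between CAST PSC and BL6 PSC, and in none of them do the points of these 2 groups overlap. The share of all genes without overlap was not counted. A call between these libraries makes such a separation likely, so it is no further support.

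Among 26 tested genes of naive and core pluripotency, 5 were higher in CAST PSC and none was lower, beside 5.74% of all genes higher and 4.81% lower. The list had a median log2 difference of 0.36, where all genes tested had 0.0076 and the heat shock and chaperone list had 0.36 as well. Of the naive and core list, 21 genes were not called. Besides Zfp42 the higher genes were Fbxo15, an F-box gene switched on by Pou5f1 and Sox2, Dppa3, which protects the maternal genome from demethylation in the zygote, Prdm14, a factor of naive cells and primordial germ cells, and Tfcp2l1, a factor downstream of LIF. Fbxo15 had 398 and 358 CPM in CAST PSC, against 62.8 and 55 CPM in BL6 PSC (log2 2.68, SE 0.29, adjusted p = 0.0013). Dppa3 had 170.3 and 129 CPM in CAST PSC, against 31.1 and 27.7 CPM in BL6 PSC (log2 2.35, SE 0.30, adjusted p = 0.0026). In both genes the CAST and BL6 libraries did not overlap. Prdm14 had 110.2 and 144 CPM in CAST PSC, against 16.5 and 36.4 CPM in BL6 PSC (log2 2.26, SE 0.41, adjusted p = 0.012). Tfcp2l1 had 644 and 446 CPM in CAST PSC, against 213 and 178 CPM in BL6 PSC (log2 1.48, SE 0.36, adjusted p = 0.035). Prdm14 was not called without CAST PSC 1 or CAST PSC 2 (highest adjusted p = 0.073). Tfcp2l1 was not called without CAST PSC 1, CAST PSC 2, BL6 PSC 1 or BL6 PSC 2, with upper-quartile scaling or without genes under 1 CPM in a genotype (highest adjusted p = 0.27). The nuclear receptor Esrrb (811 and 529.6 CPM in CAST PSC, against 670.1 and 663 CPM in BL6 PSC) and Klf4 (319.7 and 143 CPM in CAST PSC, against 738 and 163 CPM in BL6 PSC), also naive factors, overlapped between the strains. Without CAST PSC 1 or CAST PSC 2 the list had 3 calls. No lower gene had an unadjusted p under 0.05 or was called by DESeq2, which called 7 higher. With no filter on low counts 9 were called higher and 1 lower. Lncenc1, a noncoding RNA of naive stem cells that is not in the list, was lower in CAST PSC (log2 -11.02), as given below.

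Formative and primed genes divided in both directions, with 5 of 18 tested genes lower in CAST PSC and 2 higher (median log2 -0.23). Of all genes tested 4.81% were lower and 5.74% higher. Etv4 had 1.65 and 1.7 CPM in CAST PSC, against 121 and 289.9 CPM in BL6 PSC (log2 -6.93, SE 0.56, adjusted p = 0.00032). Cldn6, a tight junction protein of embryonic epithelium, had 19.9 and 20.2 CPM in CAST PSC, against 99.7 and 131 CPM in BL6 PSC (log2 -2.53, SE 0.31, adjusted p = 0.0022). Both genes separated the strains, and both were called under each of the 17 alternatives. Tcf15, a helix-loop-helix factor that primes cells for differentiation, had 7.65 and 16.6 CPM in CAST PSC, against 92.2 and 189 CPM in BL6 PSC (log2 -3.54, SE 0.53, adjusted p = 0.008). Pou3f1, a POU factor of the epiblast, had 17.1 and 21 CPM in CAST PSC, against 46.3 and 70.9 CPM in BL6 PSC (log2 -1.62, SE 0.41, adjusted p = 0.039). Grhl2, which activates epithelial enhancers, had 8.23 and 3.8 CPM in CAST PSC, against 31.2 and 36.1 CPM in BL6 PSC (log2 -2.48, SE 0.50, adjusted p = 0.018). Tcf15 was not called without CAST PSC 1 (highest adjusted p = 0.07). Pou3f1 was not called without CAST PSC 1, CAST PSC 2 or BL6 PSC 2, without genes under 1 CPM in a genotype or with GC offsets (highest adjusted p = 0.25). Grhl2 was not called without CAST PSC 1, CAST PSC 2 or BL6 PSC 2 (highest adjusted p = 0.15). The 2 genes in the other direction were Zic2, with 208 and 195 CPM in CAST PSC, against 64 and 67.1 CPM in BL6 PSC (log2 1.62, SE 0.28, adjusted p = 0.0096), and Foxd3. Foxd3, a forkhead factor needed by the epiblast, had 54.3 and 20.4 CPM in CAST PSC, against 0 and 0 CPM in BL6 PSC, at least 325-fold higher against the floor of 3 counts over the 2 BL6 libraries. No other gene of this list was at 0 counts in both BL6 PSC, and Foxd3 had 0.648 CPM in CAST MN, against 0 CPM in all 7 BL6 MN. Zic2 was not called without CAST PSC 1 or CAST PSC 2 (highest adjusted p = 0.097). Otx2 (42.2 and 50.4 CPM in CAST PSC, against 32.6 and 31.1 CPM in BL6 PSC) and Fgf5 (2.59 and 1.31 CPM in CAST PSC, against 1.98 and 0.967 CPM in BL6 PSC), classical genes of the formative state, were not called.

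In FGF and ERK signalling 5 of 19 tested genes were lower in CAST PSC, all of them targets or inhibitors, and none was higher (1 at an unadjusted p under 0.05; DESeq2 called 6 lower and 0 higher). The median log2 difference of the list was -1.05, and the shares of all genes tested were 4.81% lower and 5.74% higher. Spry4, a feedback inhibitor of receptor tyrosine kinases, had 1.76 and 0.131 CPM in CAST PSC, against 138 and 115 CPM in BL6 PSC (log2 -7.00, SE 0.85, adjusted p = 0.002). Dusp6, the phosphatase that dephosphorylates ERK, had 5.53 and 2.23 CPM in CAST PSC, against 114 and 86.2 CPM in BL6 PSC (log2 -4.68, SE 0.96, adjusted p = 0.019). As for Etv4, each BL6 library was far above both CAST libraries. Spry2, a relative of Spry4, had 34.6 and 20 CPM in CAST PSC, against 158 and 102 CPM in BL6 PSC (log2 -2.25, SE 0.50, adjusted p = 0.026). Spred1, an inhibitor of Ras activation, had 23.9 and 20.2 CPM in CAST PSC, against 112 and 64.9 CPM in BL6 PSC (log2 -2.001, SE 0.47, adjusted p = 0.032). Dusp6 was not called without CAST PSC 1, CAST PSC 2 or BL6 PSC 2 (highest adjusted p = 0.13). Spry2 was not called without CAST PSC 1, CAST PSC 2, BL6 PSC 1 or BL6 PSC 2 (highest adjusted p = 0.19). Spred1 was not called without CAST PSC 1, CAST PSC 2 or BL6 PSC 1 (highest adjusted p = 0.2). The ligand Fgf4 had 218 and 196 CPM in CAST PSC, against 267 and 311 CPM in BL6 PSC (log2 -0.48, SE 0.27, adjusted p = 0.3), and the receptor Fgfr1 had 254 and 192 CPM in CAST PSC, against 181 and 232 CPM in BL6 PSC. Neither was called, although both CAST libraries were below both BL6 libraries in Fgf4. Etv5, the close relative of Etv4, had 862 and 720.0 CPM in CAST PSC, against 394 and 495 CPM in BL6 PSC (log2 0.83, SE 0.32, adjusted p = 0.14), and both CAST libraries were above both BL6 libraries. The immediate early gene Egr1 had 74.6 and 0.917 CPM in CAST PSC, against 573 and 21.1 CPM in BL6 PSC and Fos had 116 and 33.5 CPM in CAST PSC, against 613 and 15.8 CPM in BL6 PSC, and in both genes the libraries of each strain were far apart from each other. CAS129 PSC were low as well in Spry4 (0.664 and 0 CPM in CAS129 PSC), Etv4 (1.66 and 1.04 CPM in CAS129 PSC) and Dusp6 (7.63 and 0.208 CPM in CAS129 PSC). None of these 3 genes was called in motor neurons, where both strains expressed them. Spry4 had 53.3 CPM in CAST MN, against 39.6 to 53.3 CPM in BL6 MN with a median of 43.2. Etv4 had 42.5 CPM in CAST MN, against 23 to 38.3 CPM in BL6 MN with a median of 25.5. Dusp6 had 74.6 CPM in CAST MN, against 69.4 to 133 CPM in BL6 MN with a median of 125. The strain difference was more negative in PSC than in MN for all 5 called genes, the extremes being Etv4 (log2 -7.61, SE 0.51, adjusted p = 4.4e-07) and Spred1 (log2 -1.79, SE 0.45, adjusted p = 0.023). For Spred1 this call was lost without CAST PSC 1, CAST PSC 2 or BL6 PSC 1 (highest adjusted p = 0.09). Of the list, 6 of 19 genes were lower and 1 was higher in this test of the difference, beside 4.55% and 2.73% of 15846 genes tested. The list had 3 lower genes called without BL6 PSC 1, BL6 PSC 2 or CAST PSC 1, and 2 without CAST PSC 2.

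Klb encodes a co-receptor of endocrine FGFs and went the other way, with 48.2 and 41.1 CPM in CAST PSC, against 0.0732 and 0 CPM in BL6 PSC (log2 9.74, SE 0.64, adjusted p = 0.00017). It was at 45.6 and 36.4 CPM in CAS129 PSC and low in motor neurons, with 0.432 CPM in CAST MN, against 0.132 to 3.23 CPM in BL6 MN with a median of 0.915. The CAST libraries were thus high, the BL6 libraries at or near 0. Beside the counts of the pathway lists that follow, 5.74% of all genes tested were higher and 4.81% lower. In Nodal signalling Tdgf1 was the only one of 13 tested genes called in edgeR, while DESeq2 called 3 lower and GC offsets gave 1 higher and 2 lower. Nodal itself had 101 and 46 CPM in CAST PSC, against 82.4 and 83.9 CPM in BL6 PSC. Foxh1, a transcription factor of the pathway, had 52 and 85.9 CPM in CAST PSC, against 36.6 and 80.1 CPM in BL6 PSC, and the receptor Acvr1b had 46.1 and 38.6 CPM in CAST PSC, against 71.2 and 93.5 CPM in BL6 PSC (adjusted p = 0.08). In the LIF pathway 1 of 10 genes was called, the feedback inhibitor Socs3, which was lower with 53.1 and 108 CPM in CAST PSC, against 264 and 221 CPM in BL6 PSC (log2 -1.59, SE 0.37, adjusted p = 0.031). Socs3 was not called without CAST PSC 1, BL6 PSC 1, BL6 PSC 2 or CAS129 PSC 1, in the 4 CAST and BL6 libraries alone or with GC offsets (highest adjusted p = 0.22). Of 18 WNT genes, Znrf3, which removes WNT receptors from the membrane, was higher (59.2 and 58 CPM in CAST PSC, against 24.6 and 24.6 CPM in BL6 PSC; log2 1.25, SE 0.28, adjusted p = 0.027), and Notum, which inactivates WNT ligands, was lower (4.23 and 2.1 CPM in CAST PSC, against 17 and 21.8 CPM in BL6 PSC; log2 -2.61, SE 0.52, adjusted p = 0.017). Znrf3 was not called without CAST PSC 1, CAST PSC 2 or BL6 PSC 2 or in the 4 CAST and BL6 libraries alone (highest adjusted p = 0.22). Notum was not called without CAST PSC 1, CAST PSC 2 or BL6 PSC 2 (highest adjusted p = 0.15). None of 15 BMP and Id genes was called in edgeR, where 2 had an unadjusted p under 0.05, and DESeq2 called 1. T, the mesoderm factor brachyury, was the 1 called gene among 10 of the primitive streak, with 6.47 and 16.4 CPM in CAST PSC, against 1.76 and 0.645 CPM in BL6 PSC (log2 3.22, SE 0.71, adjusted p = 0.025). T was not called without CAST PSC 1, CAST PSC 2 or BL6 PSC 2 or in the 4 CAST and BL6 libraries alone (highest adjusted p = 0.18).

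Of 22 tested germline genes 7 were higher in CAST PSC and none lower (1 at an unadjusted p under 0.05, 0 in DESeq2), with a median log2 of 1.79. This stood beside 5.74% of all genes tested higher and 4.81% lower. Dazl, an RNA-binding protein of germ cells, had 371 and 818 CPM in CAST PSC, against 14.9 and 3.47 CPM in BL6 PSC (log2 6.01, SE 0.89, adjusted p = 0.0054). Stk31, a germ cell kinase, had 83.8 and 106 CPM in CAST PSC, against 8.71 and 2.98 CPM in BL6 PSC (log2 4.01, SE 0.55, adjusted p = 0.0035). Both were called in PSC under each of the 17 alternatives, and in both the BL6 libraries also differed from each other. Rhox5, a homeobox gene on the X chromosome, had 154 and 165 CPM in CAST PSC, against 19.3 and 43.6 CPM in BL6 PSC (log2 2.34, SE 0.47, adjusted p = 0.017). Tex19.1 had 295 and 197 CPM in CAST PSC, against 65.6 and 69.2 CPM in BL6 PSC (log2 1.86, SE 0.41, adjusted p = 0.024). Kit, the stem cell factor receptor, had 387 and 284 CPM in CAST PSC, against 97.3 and 120.3 CPM in BL6 PSC (log2 1.62, SE 0.30, adjusted p = 0.014). In these 3 genes both CAST libraries were above both BL6 libraries. Tdrd12, a tudor protein of the piRNA pathway, had 100.3 and 114 CPM in CAST PSC, against 45.1 and 20.2 CPM in BL6 PSC (log2 1.71, SE 0.43, adjusted p = 0.045). Dpep3, a dipeptidase made in testis, had 9.29 and 15.5 CPM in CAST PSC, against 1.46 and 1.53 CPM in BL6 PSC (log2 3.03, SE 0.51, adjusted p = 0.0089). Rhox5 was not called without CAST PSC 1 or CAST PSC 2 (highest adjusted p = 0.1). Tex19.1 was not called without CAST PSC 1, CAST PSC 2, BL6 PSC 1 or BL6 PSC 2 (highest adjusted p = 0.19). Kit was not called without CAST PSC 1 or CAST PSC 2 or in the fit of all 20 libraries (highest adjusted p = 0.14). Tdrd12 was not called without CAST PSC 1, CAST PSC 2, BL6 PSC 2 or CAS129 PSC 1, with RLE scaling, with upper-quartile scaling, in the 4 CAST and BL6 libraries alone, without genes at 0 in a genotype or without genes under 1 CPM in a genotype (highest adjusted p = 0.22). Dpep3 was not called without CAST PSC 2 or BL6 PSC 2 (highest adjusted p = 0.088). The meiotic genes Sycp1 (23.9 and 77.8 CPM in CAST PSC, against 11.4 and 2.1 CPM in BL6 PSC) and Hormad1 (51.4 and 76.2 CPM in CAST PSC, against 21 and 1.93 CPM in BL6 PSC) showed the same order of the groups but missed the threshold (adjusted p = 0.11 and 0.18). Ddx4 (29.2 and 42.3 CPM in CAST PSC, against 41.9 and 21.4 CPM in BL6 PSC) and Piwil2 (36.6 and 62.9 CPM in CAST PSC, against 39.5 and 53 CPM in BL6 PSC), germ cell helicase and PIWI protein, overlapped between the strains. Germ cell genes are commonly silenced by DNA methylation in somatic cells. Of 14 tested genes of DNA methylation and demethylation only Dppa3 was called in edgeR. DESeq2 called 1 higher and 1 lower, and the fit of all 20 libraries 1 higher and 2 lower. Dnmt3a, a de novo methyltransferase, had 133 and 146 CPM in CAST PSC, against 207 and 366 CPM in BL6 PSC (adjusted p = 0.087). It was called under 5 of the 17 alternatives, among them GC offsets (adjusted p = 0.042 in edgeR). Dnmt1, which maintains methylation, had 723 and 698 CPM in CAST PSC, against 457 and 520.1 CPM in BL6 PSC (adjusted p = 0.28). The calls of the germline list rested on single libraries, and fewer were made without BL6 PSC 2, CAST PSC 1 or CAST PSC 2. Its median log2 was 1.49 without BL6 PSC 2 and 1.85 without BL6 PSC 1. For Dazl and Stk31 the strain difference was larger in PSC than in MN (log2 8.92, SE 1.99, adjusted p = 0.013 for Dazl; log2 4.35, SE 1.20, adjusted p = 0.037 for Stk31), where Dazl had 0.324 CPM in CAST MN, against 0.211 to 5.96 CPM in BL6 MN with a median of 1.63. For Stk31 this difference was not called without CAST PSC 1, CAST PSC 2 or BL6 PSC 2, or with the CAST and BL6 libraries alone (highest adjusted p = 0.093).

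Imprinted genes are expressed from the copy of a single parent. They differed in 11 of 50 tested, 7 higher in CAST PSC and 4 lower (median log2 0.23), beside 5.74% and 4.81% of all genes. The Dlk1-Dio3 cluster on chromosome 12 held 4 of the 7. Meg3, a noncoding RNA of the maternal copy, had 163 and 159 CPM in CAST PSC, against 36.7 and 12.9 CPM in BL6 PSC (log2 2.70, SE 0.48, adjusted p = 0.011). Rian, the next noncoding RNA, had 153 and 109.6 CPM in CAST PSC, against 14.9 and 1.37 CPM in BL6 PSC (log2 4.00, SE 0.86, adjusted p = 0.023). Both RNAs separated the strains, with BL6 PSC 2 the lowest library of the 4. Mirg, a further one, had 9.76 and 6.55 CPM in CAST PSC, against 1.17 and 0.161 CPM in BL6 PSC (log2 3.57, SE 0.79, adjusted p = 0.026). Dio3, the deiodinase that inactivates thyroid hormone, had 55.3 and 13.5 CPM in CAST PSC, against 0.805 and 0.242 CPM in BL6 PSC (log2 5.98, SE 0.92, adjusted p = 0.0086). In each of the 4 the CAST libraries were above both BL6 libraries, and BL6 PSC 1 was above BL6 PSC 2. Meg3 was not called without CAST PSC 1 (highest adjusted p = 0.091). Rian was not called without CAST PSC 1 or CAST PSC 2 or in the 4 CAST and BL6 libraries alone (highest adjusted p = 0.13). Mirg was not called without CAST PSC 1, CAST PSC 2 or BL6 PSC 2 or in the 4 CAST and BL6 libraries alone (highest adjusted p = 0.17). Dio3 was not called without BL6 PSC 2. Without CAST PSC 1 or without CAST PSC 2 it was under the filter on low counts and not tested. In motor neurons Meg3 had 1886 CPM in CAST MN, against 10.5 to 26.1 CPM in BL6 MN with a median of 15.1 and Rian had 1559 CPM in CAST MN, against 32.7 to 60.5 CPM in BL6 MN with a median of 50.8, and both were higher (log2 6.89, SE 0.39, adjusted p = 4.2e-09 for Meg3; log2 4.99, SE 0.45, adjusted p = 9.1e-07 for Rian). For Meg3 the strain difference was larger there than in PSC (log2 -4.23, SE 0.68, adjusted p = 0.0016 for PSC minus MN). Dlk1, the paternally expressed end of the cluster, was not called in PSC (8 and 11.1 CPM in CAST PSC, against 2.05 and 2.5 CPM in BL6 PSC). In motor neurons Dlk1 was lower, with 13.8 CPM in CAST MN, against 133 to 338 CPM in BL6 MN with a median of 282 (log2 -4.22, SE 0.53, adjusted p = 4.2e-05). Exons of Meg3 share 6.79% of their bases with Gm26906 on the opposite strand, and no label says whether the counting used strand.

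Outside this cluster, Mest (258 and 161 CPM in CAST PSC, against 60.5 and 52.2 CPM in BL6 PSC; log2 1.90, SE 0.34, adjusted p = 0.011), an enzyme gene active in mesoderm, and Plagl1 (46.5 and 40.2 CPM in CAST PSC, against 7.17 and 1.85 CPM in BL6 PSC; log2 3.25, SE 0.57, adjusted p = 0.011), a zinc finger regulator of imprinted genes, were higher. The growth factor Igf2 had 26 and 14.3 CPM in CAST PSC, against 5.2 and 6.61 CPM in BL6 PSC (log2 1.77, adjusted p = 0.042). Mest was not called without CAST PSC 1 or BL6 PSC 2 (highest adjusted p = 0.13). Plagl1 was not called without CAST PSC 1 (highest adjusted p = 0.089). Grb10, an adaptor that restrains insulin receptor signalling, was lower, with 49.5 and 33.9 CPM in CAST PSC, against 349.5 and 251 CPM in BL6 PSC (log2 -2.85, SE 0.34, adjusted p = 0.0018). Phlda2, which limits placental growth, had 1.41 and 6.29 CPM in CAST PSC, against 69.8 and 89.5 CPM in BL6 PSC (log2 -4.38, SE 0.66, adjusted p = 0.0058). H19, a noncoding RNA beside Igf2, had 41.2 and 52 CPM in CAST PSC, against 166 and 283 CPM in BL6 PSC (log2 -2.27, SE 0.36, adjusted p = 0.0068). In each of these genes the strains did not overlap. Nnat, a membrane protein of the developing brain, had 3.41 and 4.19 CPM in CAST PSC, against 33.5 and 34.3 CPM in BL6 PSC (log2 -3.15, SE 0.43, adjusted p = 0.0054). Grb10 and Phlda2 were called under each of the 17 alternatives, and Grb10 was also lower in motor neurons, with 59.2 CPM in CAST MN, against 195 to 475 CPM in BL6 MN with a median of 347 (log2 -2.48, SE 0.44, adjusted p = 0.0011). H19 and Nnat were not called without CAST PSC 1 or CAST PSC 2 (highest adjusted p = 0.088 and 0.083). The imprinted list rested on single libraries: without CAST PSC 1 it had 0 higher and 2 lower genes, without CAST PSC 2 it had 3 and 2, and without BL6 PSC 2 it had 4 and 4.

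Some genes of simple epithelium and of neural progenitors were lower in CAST PSC. For comparison with the counts of both lists, 4.81% of all genes tested were lower and 5.74% higher. Of 13 tested genes of trophoblast and simple epithelium 3 were lower and none higher (1 at an unadjusted p under 0.05, 0 in DESeq2), with a median log2 of -1.89. Krt8, a keratin, had 2.82 and 6.94 CPM in CAST PSC, against 60.7 and 96.1 CPM in BL6 PSC (log2 -4.01, SE 0.57, adjusted p = 0.0044). Epcam, an adhesion molecule, had 48.1 and 88 CPM in CAST PSC, against 399 and 498 CPM in BL6 PSC (log2 -2.72, SE 0.45, adjusted p = 0.0086). Cldn4, a claudin, had 82.5 and 64.3 CPM in CAST PSC, against 229 and 329.5 CPM in BL6 PSC (log2 -1.93, SE 0.32, adjusted p = 0.0087). Krt8 and Epcam were not called without CAST PSC 1 (highest adjusted p = 0.05 and 0.093). Cldn4 was not called without CAST PSC 1 or CAST PSC 2 (highest adjusted p = 0.11). Cdh1, the epithelial cadherin that stem cells also carry, had 629.8 and 461 CPM in CAST PSC, against 672 and 614 CPM in BL6 PSC and was not called. Of 15 neural genes 4 were lower and none higher, where 1 higher gene had an unadjusted p under 0.05 and DESeq2 called 0 (median log2 -0.81). Olig2, a factor of motor neuron and oligodendrocyte progenitors, had 0 and 0.131 CPM in CAST PSC, against 34.1 and 63 CPM in BL6 PSC (log2 -9.31, SE 0.85, adjusted p = 0.00094), and its neighbour Olig1 had 0 and 0.655 CPM in CAST PSC, against 52 and 113 CPM in BL6 PSC (log2 -7.97, SE 0.91, adjusted p = 0.0015). Both Olig genes were present in each BL6 PSC library and at or under 1 CPM in each CAST PSC library, and both calls held under the alternatives that tested them, 16 of 17 for Olig1 and 14 of 17 for Olig2, which was not tested without BL6 PSC 1 or without BL6 PSC 2. Sox11 had 11.1 and 19.8 CPM in CAST PSC, against 89.1 and 57.9 CPM in BL6 PSC (log2 -2.25, SE 0.42, adjusted p = 0.014). Sox1, a factor of early neurectoderm, had 2.94 and 3.41 CPM in CAST PSC, against 10.9 and 15 CPM in BL6 PSC (log2 -2.02, SE 0.50, adjusted p = 0.037). Sox11 was not called without CAST PSC 1 or CAST PSC 2 (highest adjusted p = 0.15). Sox1 was not called without CAST PSC 1, CAST PSC 2 or BL6 PSC 2 (highest adjusted p = 0.24). The 15 tested neural genes summed to 382 to 412 CPM in CAST PSC, against 701 to 718 CPM in BL6 PSC. Whether BL6 PSC held cells further along in differentiation was not tested. None of 15 tested endoderm genes was called in edgeR, where 4 had an unadjusted p under 0.05, and DESeq2 called 4. None of 22 fibroblast genes was called, had an unadjusted p under 0.05 or was called by DESeq2. With no filter on low counts 2 of 23 were called higher and 1 lower. The result rested on which libraries were in: the median log2 of the list was 0.011, but 1.65 without BL6 PSC 1 and -0.46 without BL6 PSC 2. The 22 tested fibroblast genes summed to 4136 to 6974 CPM in CAST PSC, against 2442 to 6030.5 CPM in BL6 PSC. Col1a1, a defining collagen, had 1908 and 929 CPM in CAST PSC, against 1087 and 206 CPM in BL6 PSC. In bulk RNA, fewer cells of a type and less RNA per cell cannot be told apart.

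Slc7a11 stood in an antioxidant list in which 2 of 27 tested genes were higher in CAST PSC and 2 lower beside 5.74% and 4.81% of all genes tested (median log2 -0.18). Gss, which completes glutathione synthesis, was the other higher gene, with 127 and 179 CPM in CAST PSC, against 21.5 and 36.5 CPM in BL6 PSC (log2 2.39, SE 0.37, adjusted p = 0.0063). Gclm, the modifier of the first step of that synthesis, was lower with 60.8 and 51.9 CPM in CAST PSC, against 197 and 159 CPM in BL6 PSC (log2 -1.66, SE 0.33, adjusted p = 0.016), and so was the metallothionein Mt1 (293 and 236 CPM in CAST PSC, against 516 and 1288 CPM in BL6 PSC; log2 -1.77, SE 0.46, adjusted p = 0.043). Gclm was not called without CAST PSC 1 or CAST PSC 2 (highest adjusted p = 0.16). Mt1 was not called without CAST PSC 1, CAST PSC 2, BL6 PSC 2, CAS129 PSC 1 or CAS129 PSC 2, in the 4 CAST and BL6 libraries alone, without genes at 0 in a genotype or without genes under 1 CPM in a genotype (highest adjusted p = 0.25). Slc3a2, the heavy chain that pairs with Slc7a11 in the cystine transporter, had 478 and 439.8 CPM in CAST PSC, against 360.4 and 488 CPM in BL6 PSC. It was not called (adjusted p = 0.84), and its CAST and BL6 libraries overlapped. The NRF2 target Nqo1 had 33.1 and 40.1 CPM in CAST PSC, against 49.3 and 39.4 CPM in BL6 PSC and Nfe2l2, which encodes NRF2, had 139.8 and 123 CPM in CAST PSC, against 86.1 and 100.4 CPM in BL6 PSC, and neither was called. Of 30 genes of the ATF4 and amino acid response 2 were higher and 2 lower, beside the same shares of all genes (median log2 -0.12). The higher genes, Cbs (86.2 and 119.6 CPM in CAST PSC, against 15.1 and 30.3 CPM in BL6 PSC; log2 2.18, SE 0.39, adjusted p = 0.011) and Cth (98 and 71.6 CPM in CAST PSC, against 35.6 and 23 CPM in BL6 PSC; log2 1.53, SE 0.35, adjusted p = 0.027), make cysteine from homocysteine. The lower genes were Psph, of serine synthesis (44.2 and 36.4 CPM in CAST PSC, against 122 and 122 CPM in BL6 PSC; log2 -1.59, SE 0.31, adjusted p = 0.015), and the stress gene Nupr1 (14.9 and 9.82 CPM in CAST PSC, against 46.4 and 46 CPM in BL6 PSC; log2 -1.90, SE 0.44, adjusted p = 0.028). Cbs and Psph were not called without CAST PSC 1 or CAST PSC 2 (highest adjusted p = 0.08 and 0.17). Cth was not called without CAST PSC 1, CAST PSC 2 or BL6 PSC 2, in the 4 CAST and BL6 libraries alone or in the fit of all 20 libraries (highest adjusted p = 0.24). Nupr1 was not called without CAST PSC 1, CAST PSC 2 or BL6 PSC 2 (highest adjusted p = 0.22). Slc7a11 was higher in motor neurons too, with 591 CPM in CAST MN, against 7.17 to 15.9 CPM in BL6 MN with a median of 11.5 (log2 5.78, SE 0.26, adjusted p = 2e-10), and its strain difference was larger in PSC (log2 2.81, SE 0.56, adjusted p = 0.006). Gss was not called in motor neurons, with 47.1 CPM in CAST MN, against 29.7 to 64.6 CPM in BL6 MN with a median of 55.2, and its strain difference was larger in PSC than in MN (log2 2.52, SE 0.48, adjusted p = 0.0048).

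Of 28 tested heat shock and chaperone genes Hspb1 was the only one lower, and Hsph1, a co-chaperone of HSP70, the only one higher (355 and 511 CPM in CAST PSC, against 209 and 186 CPM in BL6 PSC; log2 1.13, SE 0.30, adjusted p = 0.05). Hsph1 was not called without CAST PSC 1, CAST PSC 2, BL6 PSC 1, BL6 PSC 2, CAS129 PSC 1 or CAS129 PSC 2, with RLE scaling, with upper-quartile scaling, in the 4 CAST and BL6 libraries alone, without genes at 0 in a genotype or without genes under 1 CPM in a genotype (highest adjusted p = 0.39). In motor neurons Hspb1 was lower as well, with 0.432 CPM in CAST MN, against 232 to 642 CPM in BL6 MN with a median of 448 (log2 -10.00, SE 0.85, adjusted p = 4.5e-07). Of 21 p53 target genes 2 were higher and 1 lower. For this list, the heat shock list above and the glycolysis list below, the shares of all genes tested were 5.74% higher and 4.81% lower. Trp73, a p53 family factor, had 169.9 and 73.1 CPM in CAST PSC, against 10.5 and 11.1 CPM in BL6 PSC (log2 3.49, SE 0.45, adjusted p = 0.0025) and was called under each of the 17 alternatives. Aen, an apoptosis nuclease, had 196 and 210.2 CPM in CAST PSC, against 73 and 93.9 CPM in BL6 PSC (log2 1.28, SE 0.29, adjusted p = 0.027), and the death gene Bbc3 had 67.3 and 62.3 CPM in CAST PSC, against 139 and 125 CPM in BL6 PSC (log2 -1.02, SE 0.27, adjusted p = 0.049). Aen was not called without CAST PSC 1 or CAST PSC 2 (highest adjusted p = 0.19). Bbc3 was not called without CAST PSC 1, CAST PSC 2, BL6 PSC 1, BL6 PSC 2, CAS129 PSC 1 or CAS129 PSC 2, in the 4 CAST and BL6 libraries alone, without genes at 0 in a genotype, without genes under 1 CPM in a genotype or with GC offsets (highest adjusted p = 0.33). None of 24 tested cell cycle genes was called in edgeR, where 4 had an unadjusted p under 0.05, or in DESeq2. These 24 genes summed to 7688 to 8295 CPM in CAST PSC, against 7134 to 7496 CPM in BL6 PSC. Of 18 glycolysis genes none was higher in edgeR (3 at an unadjusted p under 0.05; DESeq2 called 1) and 2 were lower, Ldhb, a lactate dehydrogenase subunit (74 and 100.2 CPM in CAST PSC, against 395 and 484 CPM in BL6 PSC; log2 -2.34, SE 0.31, adjusted p = 0.0029), and Pfkm, a phosphofructokinase (30.1 and 37.6 CPM in CAST PSC, against 87.2 and 106 CPM in BL6 PSC; log2 -1.51, SE 0.29, adjusted p = 0.015). Ldhb was not called without CAST PSC 1 (highest adjusted p = 0.061). Pfkm was not called without CAST PSC 1 or CAST PSC 2 (highest adjusted p = 0.17).

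Interferon and antigen presentation genes were lower in 5 of 24 tested cases and higher in 1, with a median log2 of -1.13. Of all genes tested 4.81% were lower and 5.74% higher. Bst2, the tetherin that holds virus particles on the cell, had 18.6 and 30.3 CPM in CAST PSC, against 160.1 and 118 CPM in BL6 PSC (log2 -2.51, SE 0.35, adjusted p = 0.0041). Ifitm3, which blocks virus entry, had 63.6 and 77.7 CPM in CAST PSC, against 182 and 193 CPM in BL6 PSC (log2 -1.41, SE 0.31, adjusted p = 0.024). Both genes were well above 0 in each library, unlike the next 3. Oasl2 had 0.353 and 0.786 CPM in CAST PSC, against 16.6 and 6.61 CPM in BL6 PSC (log2 -4.33, SE 0.83, adjusted p = 0.015). Psmb8, an immunoproteasome subunit, had 0.118 and 0.262 CPM in CAST PSC, against 7.68 and 2.74 CPM in BL6 PSC (log2 -4.70, SE 1.08, adjusted p = 0.028). Gbp2, a guanylate-binding protein, had 0.353 and 0.131 CPM in CAST PSC, against 8.2 and 1.69 CPM in BL6 PSC (log2 -4.26, SE 1.12, adjusted p = 0.046). These 3 were under 1 CPM in both CAST PSC and above it in both BL6 PSC, and in each BL6 PSC 1 was above BL6 PSC 2. Ifitm2 was higher (308 and 372 CPM in CAST PSC, against 51.4 and 93.1 CPM in BL6 PSC; log2 2.23, SE 0.36, adjusted p = 0.0075), and its exons share 40.9% of their bases with another annotated gene, Gm45717. Oasl2 and Psmb8 were not called without CAST PSC 1 or CAST PSC 2. Without BL6 PSC 1 or without BL6 PSC 2, Oasl2, Psmb8 and Gbp2 were under the filter on low counts and not tested. Bst2 was not called without CAST PSC 1 (highest adjusted p = 0.07). Ifitm3 was not called without CAST PSC 1, CAST PSC 2 or BL6 PSC 2 (highest adjusted p = 0.21). Gbp2 was not called without CAST PSC 1, CAST PSC 2 or CAS129 PSC 1, with upper-quartile scaling, in the 4 CAST and BL6 libraries alone or without genes at 0 in a genotype (highest adjusted p = 0.25). Ifitm2 was not called without CAST PSC 2 (highest adjusted p = 0.055). The list had no lower gene called without CAST PSC 1 and 1 without CAST PSC 2 or BL6 PSC 2.

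Among the Lin28, Hmga and Igf2bp genes, which mark embryonic cells, Hmga1, a chromatin protein, had 5.65 and 5.5 CPM in CAST PSC, against 1244 and 1866 CPM in BL6 PSC (log2 -8.12, SE 0.44, adjusted p = 0.00017). Lin28a, which blocks maturation of let-7, had 67.8 and 73.6 CPM in CAST PSC, against 305 and 263 CPM in BL6 PSC (log2 -2.01, SE 0.29, adjusted p = 0.0047). Igf2bp2, an RNA-binding protein, had 376 and 497 CPM in CAST PSC, against 109.6 and 149 CPM in BL6 PSC (log2 1.75, SE 0.33, adjusted p = 0.014). Hmga1 and Lin28a were thus lower and Igf2bp2 higher, out of 6 genes tested, beside 4.81% of all genes lower and 5.74% higher. Lin28a and Igf2bp2 were not called without CAST PSC 1 or CAST PSC 2 (highest adjusted p = 0.084 and 0.12). Hmga1 has near-identical copies, of which Hmga1b had 0 and 0 CPM in CAST PSC, against 19.5 and 10 CPM in BL6 PSC, so its values are uncertain. Hmga1 was at 0 in both CAS129 PSC. Such a 0 is not read as a level here, since 391 of 8449 genes with at least 10 CPM in both strains were at 0 counts in both CAS129 PSC. In motor neurons Hmga1 was lower in CAST, with 2.27 CPM in CAST MN, against 68.3 to 279 CPM in BL6 MN with a median of 123 (log2 -5.95, SE 0.81, adjusted p = 0.00022).

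**Figure D3:**
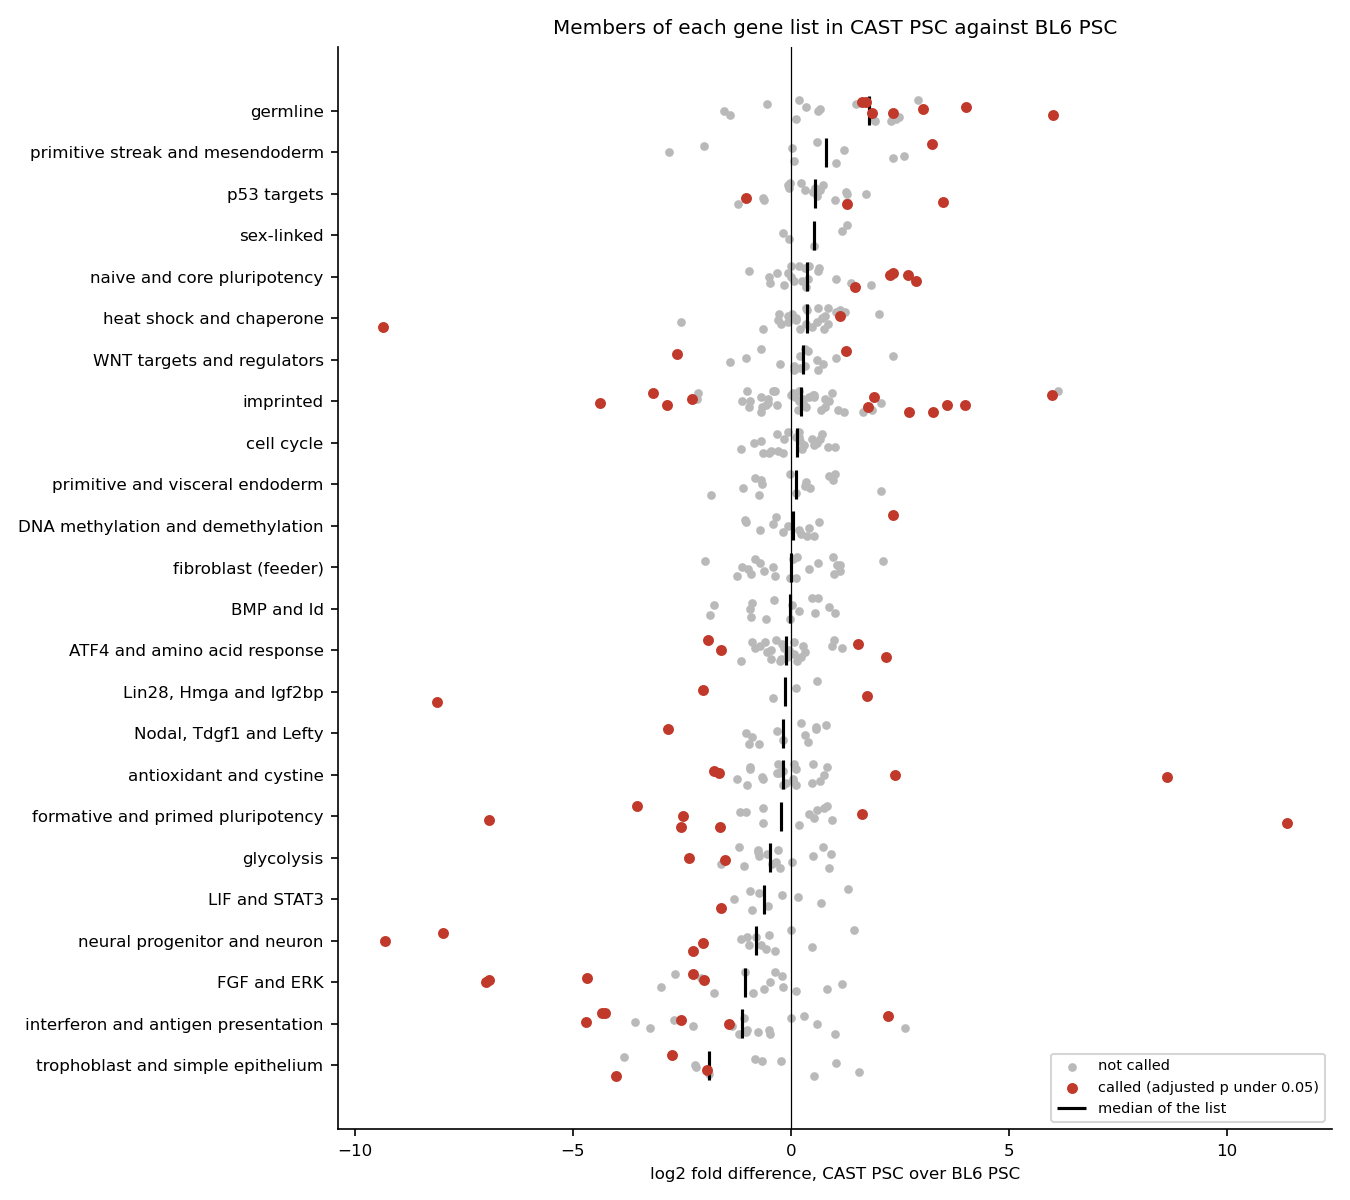
Log2 difference of CAST PSC over BL6 PSC (horizontal axis) for the tested members of the gene lists with at least 5 tested genes (rows, ordered by their median). Red points are called genes, grey points are not called, and the black line is the median of the list. The germline list has the highest median (1.79) and the list of trophoblast and simple epithelium the lowest (-1.89).

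Some genes outside the lists were named for the size of their difference, and their values are a description. Epha4, a receptor for ephrins, had 127 and 84.1 CPM in CAST PSC, against 7.17 and 4.43 CPM in BL6 PSC (log2 4.18, SE 0.42, adjusted p = 0.00083). Lpar1, a receptor for lysophosphatidic acid, had 91.9 and 69.9 CPM in CAST PSC, against 6.59 and 4.11 CPM in BL6 PSC (log2 3.91, SE 0.37, adjusted p = 0.00066). Mme, a membrane peptidase, had 286 and 186 CPM in CAST PSC, against 27.4 and 5.64 CPM in BL6 PSC (log2 3.83, SE 0.67, adjusted p = 0.011). These surface proteins were higher in CAST PSC, and in all 3 the strains did not overlap. Pigp, of the synthesis of membrane anchors, had 874 and 1395 CPM in CAST PSC, against 10.8 and 7.34 CPM in BL6 PSC (log2 6.97, SE 0.44, adjusted p = 0.00017). Mcf2, a guanine nucleotide exchange factor, had 141 and 116 CPM in CAST PSC, against 12.3 and 3.95 CPM in BL6 PSC (log2 3.98, SE 0.52, adjusted p = 0.0028). Cited4, a coactivator, had 154 and 52 CPM in CAST PSC, against 7.25 and 7.98 CPM in BL6 PSC (log2 3.76, SE 0.75, adjusted p = 0.017). Mme was not called without CAST PSC 1 (highest adjusted p = 0.085). Cited4 was not called without CAST PSC 1, BL6 PSC 1 or BL6 PSC 2 (highest adjusted p = 0.14). On the other side Mmp11, a matrix protease, had 21.8 and 31 CPM in CAST PSC, against 671 and 1149 CPM in BL6 PSC (log2 -5.11, SE 0.42, adjusted p = 0.00032). Itga3, an integrin subunit, had 4.35 and 6.81 CPM in CAST PSC, against 96.9 and 203 CPM in BL6 PSC (log2 -4.75, SE 0.48, adjusted p = 0.00083). Csrp2, a LIM domain protein, had 8.12 and 9.17 CPM in CAST PSC, against 179 and 358 CPM in BL6 PSC (log2 -4.95, SE 0.56, adjusted p = 0.0015). All 3 were low in both CAST libraries and, in each, BL6 PSC 2 was the highest library. Tuba1b, an alpha tubulin, had 9.76 and 7.99 CPM in CAST PSC, against 888 and 1281 CPM in BL6 PSC (log2 -6.93, SE 0.41, adjusted p = 0.00015), and as a member of a family of near-identical tubulins its value is uncertain. Several of these were not called in motor neurons, and their strain difference in PSC minus that in MN was tested directly. Pigp had 32.5 CPM in CAST MN, against 21.9 to 52.2 CPM in BL6 MN with a median of 30.3 (log2 6.95, SE 0.66, adjusted p = 1.4e-05). Epha4 had 90.6 CPM in CAST MN, against 73.7 to 118 CPM in BL6 MN with a median of 90.6 (log2 4.15, SE 0.44, adjusted p = 4.5e-05). Itga3 had 208 CPM in CAST MN, against 106 to 201 CPM in BL6 MN with a median of 128 (log2 -5.31, SE 0.48, adjusted p = 1.2e-05). In each of the 3 both strains expressed the gene in motor neurons. Lncenc1, a noncoding RNA of naive stem cells, had 0 and 0.131 CPM in CAST PSC, against 160.4 and 157 CPM in BL6 PSC (log2 -11.02, SE 0.59, adjusted p = 0.00015), and 251 and 236 CPM in CAS129 PSC. The gene is Lncenc1 (ENSMUSG00000078952, chr13:97434970-97497007), and in motor neurons it had 1.84 CPM in CAST MN, against 2.77 to 4.49 CPM in BL6 MN with a median of 3.79.

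The largest fold differences were all-or-none. Of the called genes, 56 had 0 counts in both BL6 PSC and at least 10 CPM in CAST PSC, and 16 had 0 counts in both CAST PSC and at least 10 CPM in BL6 PSC. The first set held 37 long intergenic noncoding RNAs (lincRNAs) and 15 protein-coding genes, and the second 15 protein-coding genes. Across all genes tested, 40.4% of 324 lincRNAs were called, against 9.71% of 12957 protein-coding genes. Gm26762 had 177 and 369 CPM in CAST PSC, against 0 and 0 CPM in BL6 PSC. Gm26582 had 265 and 244 CPM in CAST PSC, against 0 and 0 CPM in BL6 PSC. Gm26882 had 224 and 279 CPM in CAST PSC, against 0 and 0 CPM in BL6 PSC. Against 3 counts over the BL6 libraries, Gm26762 was at least 2372-fold higher, Gm26582 at least 2212-fold and Gm26882 at least 2184-fold. Many of these models lie within other genes: 25 of the 56 share over 50% of their exon bases with another gene (46.3% of the annotated ones), against 2.50% of all genes tested. In 22 of the 25 the other gene is on the opposite strand. Gm26882 lies by 97.5% in exons of Morf4l1, which had 441 CPM in CAST PSC and 418 CPM in BL6 PSC on average, and Gm26718 lies wholly in exons of Pgam5, which had 137 CPM in CAST PSC and 107 CPM in BL6 PSC on average. Of the 21 overlapped genes that were tested 2 were called, both higher in CAST PSC, and their median log2 difference was 0.34. In motor neurons 53 of the 56 were at 0 in all 7 BL6 MN libraries and 54 reached 1 CPM in CAST MN. Of all 13795 genes tested, 305 were at 0 in all BL6 MN and 12080 reached 1 CPM in CAST MN. In both CAS129 PSC, 47 of the 56 and 13 of the 16 were at 0, beside 907 of all genes tested.

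Protein-coding genes at or near 0 in a single strain included genes active in most cells. Raver1, a splicing factor, had 189 and 147 CPM in CAST PSC, against 0 and 0 CPM in BL6 PSC. Ado, a thiol dioxygenase, had 72 and 58.4 CPM in CAST PSC, against 0 and 0 CPM in BL6 PSC. Exons of Raver1 share 99.7% of their bases with Gm38431 on the same strand. In the other direction Fau, which encodes a ribosomal protein fused to a ubiquitin-like protein, had 0.118 and 0.262 CPM in CAST PSC, against 596 and 1279 CPM in BL6 PSC (log2 -12.19, SE 0.72, adjusted p = 0.00018), and the mitochondrial elongation factor Tufm had 0.235 and 0 CPM in CAST PSC, against 158 and 187 CPM in BL6 PSC (log2 -10.29, SE 0.74, adjusted p = 0.00019). Both were at 0 or nearly so in CAST MN as well, with 0 CPM in CAST MN, against 181 to 292 CPM in BL6 MN with a median of 274 for Fau and 0.216 CPM in CAST MN, against 72.1 to 95.5 CPM in BL6 MN with a median of 80.4 for Tufm. These genes thus kept their direction across the cell types. The next gene did so too, but with a smaller difference in motor neurons. B3gat2, a glucuronyltransferase, had 0 and 0 CPM in CAST PSC, against 44.1 and 51.6 CPM in BL6 PSC, at least 257-fold lower. In motor neurons it had 21.9 CPM in CAST MN, against 71.9 to 104 CPM in BL6 MN with a median of 82.2 (log2 -1.95, SE 0.35, adjusted p = 0.0018), and 33.5% of its exon bases lie in Smap1 on the opposite strand. CAST cells thus had B3gat2 RNA in motor neurons and none counted in PSC. The mitochondrial gene mt-Cytb had 0 and 0 CPM in CAST PSC, against 1742 and 42.2 CPM in BL6 PSC (log2 -15.94, SE 2.85, adjusted p = 0.02), while mt-Nd5 had 989.9 and 461 CPM in CAST PSC, against 1449 and 40.2 CPM in BL6 PSC, so BL6 PSC 2 was low in both. mt-Cytb was not called without CAST PSC 1 or CAST PSC 2. Without BL6 PSC 1 or without BL6 PSC 2 it was under the filter on low counts and not tested. Ribosomal protein genes differed in both directions: Rpl13a had 1711 and 2607 CPM in CAST PSC, against 43.8 and 102 CPM in BL6 PSC and Rps10 had 406 and 592 CPM in CAST PSC, against 16.1 and 32.6 CPM in BL6 PSC, while Rpl38 had 7.76 and 8.78 CPM in CAST PSC, against 435 and 819 CPM in BL6 PSC. Such genes have near-identical copies elsewhere in the genome, so these values are uncertain. Exons of Rpl13a, Rps10, Tuba1b, Mest and Notum share 29.4, 20.6, 22.7, 23.1 and 29.4% of their bases with another gene. No label states which genome or annotation was used to count CAST reads, and their part in the all-or-none genes was not tested.

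Further members of this kind were named by the size of their difference. Myh14, a nonmuscle myosin heavy chain, had 0 and 0 CPM in CAST PSC, against 39.4 and 27.2 CPM in BL6 PSC, at least 179-fold lower, and Plp2, a membrane proteolipid, had 0 and 0.131 CPM in CAST PSC, against 117 and 271 CPM in BL6 PSC (log2 -11.31, SE 1.11, adjusted p = 0.00072). Mef2b, a MADS box transcription factor, had 0 and 0 CPM in CAST PSC, against 15.9 and 23.8 CPM in BL6 PSC, at least 107-fold lower. Stk33, a serine/threonine kinase, went the other way with 36.2 and 38.2 CPM in CAST PSC, against 0 and 0 CPM in BL6 PSC, at least 324-fold higher, and was low in motor neurons of both strains, with 2.05 CPM in CAST MN, against 0.264 to 1.9 CPM in BL6 MN with a median of 0.779. Mitochondrial proteins were among the genes with measurable levels in both strains. Lars2, which charges the mitochondrial leucine tRNA, had 16.7 and 12.8 CPM in CAST PSC, against 375 and 767 CPM in BL6 PSC (log2 -5.27, SE 0.46, adjusted p = 0.00045). Atp5o, an ATP synthase subunit, was higher, with 323 and 385 CPM in CAST PSC, against 19.5 and 29.3 CPM in BL6 PSC (log2 3.86, SE 0.35, adjusted p = 0.00055). Both had the same direction in motor neurons. Lars2 had 13.3 CPM in CAST MN, against 200.2 to 326 CPM in BL6 MN with a median of 281 (log2 -4.32, SE 0.45, adjusted p = 5.3e-06). Atp5o had 161 CPM in CAST MN, against 4.78 to 14.2 CPM in BL6 MN with a median of 12.7 (log2 3.89, SE 0.29, adjusted p = 8.7e-08). The strains did not overlap in either cell type for these genes. Oaz1, an inhibitor of polyamine synthesis, was lower with 21.2 and 24 CPM in CAST PSC, against 386 and 549 CPM in BL6 PSC (log2 -4.37, SE 0.36, adjusted p = 0.00032), and Pclaf, a partner of the replication clamp, was lower with 4 and 6.81 CPM in CAST PSC, against 144 and 82.3 CPM in BL6 PSC (log2 -4.39, SE 0.47, adjusted p = 0.0018).

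Whether the strain differences of the stem cells recur in another cell type was read in the motor neurons, which are separate libraries. Of the 1455 genes called in PSC, 462 were called between CAST MN and BL6 MN, which is 31.8% of the PSC calls and 32.4% of the 1425 MN calls. The share called in MN was 8.99% of 15846 genes tested (5.35% higher, 3.65% lower), and 8.79% of the genes tested in PSC (4.89% higher, 3.9% lower). Of the 462, 436 had the same direction and 26 the opposite one. CAST MN is 1 library, which is assumed to vary like the other groups, and without BL6 MN 2 the MN calls numbered 2475. Among the 476 PSC calls under 1 CPM in a genotype, 47.5% were called in MN, against 24.1% of the 979 at 1 CPM or more in both. The strain difference itself differed between the cell types in 1153 genes (7.28%), among them 456 of the PSC calls (31.3%), 402 of which were not called in MN. This count was 570 without CAST PSC 1, 619 without CAST PSC 2, 1892 without BL6 MN 2 and 2567 without BL6 PSC 1. Of the PSC calls at 1 CPM or more in both strains, 38.5% differed in this test, and of those under 1 CPM 16.6%, beside 7.87% of all genes tested in PSC (3.02% higher, 4.84% lower). The test of the difference holds the same PSC contrast, from the same libraries, that picked the PSC calls. Shares of PSC calls above that of all genes thus follow in part from this choice. Genes called in both cell types in the same direction included Slc7a11, Hspb1, Grb10, Meg3, Rian, Hmga1, Raver1, Fau and Tufm. Etv4, Spry4, Spry2, Dusp6, Spred1, Dazl, Stk31, Pigp, Epha4, Klb and Gss were called in PSC and not in MN, and differed between the cell types in the direct test. For Spred1 and Stk31 this test rested on single libraries, as given above.

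**Figure D4:**
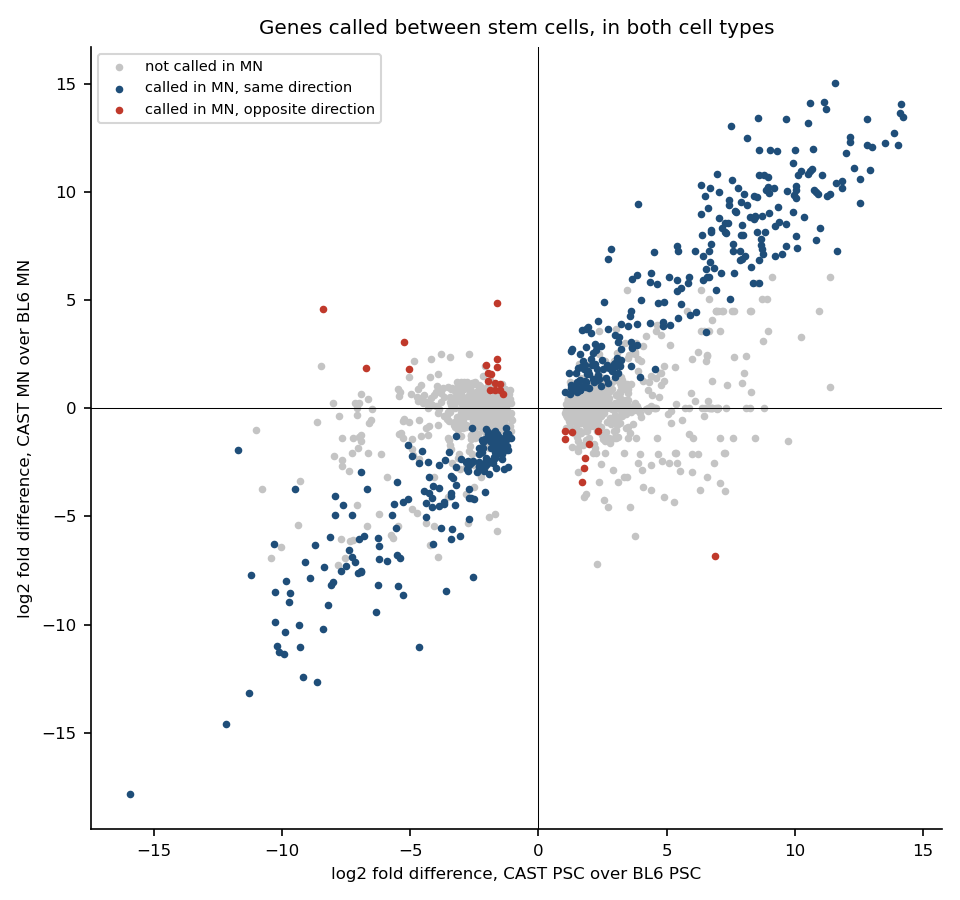
Log2 difference of CAST MN over BL6 MN (vertical axis) against that of CAST PSC over BL6 PSC (horizontal axis) for the 1455 genes called in PSC. Blue points (436 genes) were called in MN in the same direction, red points (26) in the opposite direction, and grey points were not called in MN.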

How the data were processed

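Poly(A) RNA was sequenced from stem cells and motor neurons, and the extraction kits differed between the 2 cell types, per the labels' protocols. The authors deposited raw counts of reads per gene, named by Ensembl identifiers. Alignment used STAR with GRCm38 and mm10, per the submitters' processing notes. For the counting program, strand setting, annotation and any strain-specific genome, nothing is given in the sources used here, so reads of CAST, hybrid and BL6 origin may not have been counted with like efficiency. The part of this was not tested. Of 28 count columns 20 matched a sample and were used, 8 per-sample columns were not used, and 7 samples are not analysed here. Symbols, positions, biotypes and exon overlaps of 27031 of 27071 identifiers came from the GENCODE M21 annotation of GRCm38. Totals ran from 4497912 to 13620056 counts over the PSC libraries, and the floor behind a fold against 0 is 3 counts over the group, which covers counting error only.

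Genes with at least 1 CPM in at least 2 libraries were kept. TMM scaling and edgeR's quasi-likelihood test (edgeR 4.0.16, R 4.3.3) were applied to the counts of the 6 PSC libraries in 3 groups. The motor neuron contrast and the difference of the strain contrasts, PSC minus MN, came from 1 fit of all 20 libraries in 8 groups, and motor neuron CPM are scaled over these 20. SE is the absolute log2 difference over the square root of F. In all, 3 comparisons were tested. The procedure was checked on simulated counts. Alternatives were DESeq2 1.42.0, other scalings, other filters, other sets of libraries, each library left out, a replicate block, and, added after seeing the data, removal of genes under 1 CPM in a genotype and offsets for GC content.

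The comparison, its gene lists and the rule for named genes were chosen with earlier results of these data known. The rule took the given markers, of each list at most 5 called genes, taken by mean CPM, the 15 largest rises and the 15 largest falls among called genes of at least 10 CPM, 5 genes at 0 in a genotype, and 5 genes each way for the difference between cell types. Named after their values were seen were Epha4, Lpar1, Mme, Mcf2, Pigp, Cited4, Mmp11, Itga3, Csrp2, Tuba1b, Rpl13a, Rps10, Rpl38, Atp5o, Lars2, Oaz1, Pclaf, Dio3, Nnat, Phlda2, Plagl1, Mirg, Dlk1, Igf2, Dpep3, Stk31, Grhl2, Foxd3, Gbp2, Dnmt3a, Dnmt1, Etv5, Fgf4, Col1a1 and the members given as not called.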

Additional observations from a re-analysis of the deposited data

Results flagged for a closer look

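For 50 of the named genes the strain difference differed between stem cells and motor neurons in the test of the difference itself (edgeR, adjusted p under 0.05), given as log2 of CAST over BL6 in PSC minus that in MN. It was positive in 23 and negative in 27. In 31 of the 50 this call held under every alternative that tested the gene, and 19 lost it under at least 1. Those lost only when a library was left out were Cth, Dio3, Gzmd, Krt8, Spred1 and Spx, and 13 others lost it under another setting: Aen, Clec4a1, Gbp2, Mcf2, Mme, Notum, Pfkm, Psmb8, Snx20, Stk31, Tbx3, Vnn1 and Znrf3. The highest adjusted p over the alternatives was 1 for Gzmd without BL6 PSC 1, and ran from 0.051 (Dio3) to 0.16 (Gbp2) in the others. Many named genes were picked by a call in PSC, which enters this test, or by the test itself. The count of 50 thus follows in part from that choice and cannot be set against the share of all genes given above. No explanation was tested.

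Among pluripotency and germ cell genes Dppa2 had 3.71, Tbx3 2.74, Dazl 8.92 and Stk31 4.35, while Pou3f1 had -3.95, Grhl2 -3.72 and the noncoding RNA Lncenc1 -10.12. The 5 FGF and ERK genes called in PSC were negative: Etv4 had -7.61, Spry4 -7.29, Dusp6 -4.16, Spry2 -2.43 and Spred1 -1.79. Another gene of that list was positive and called in this test. The WNT regulators Znrf3 and Notum had 1.64 and -3.8. Imprinted genes went both ways: Dio3 had 8.08, Dlk1 6.26 and Plagl1 3.57, while Meg3 had -4.23 and Nnat -4.23. For Dlk1 the groups stood apart in opposite directions in the cell types, with 8 and 11.1 CPM in CAST PSC, against 2.05 and 2.5 CPM in BL6 PSC and 13.8 CPM in CAST MN, against 133 to 338 CPM in BL6 MN with a median of 282. Slc7a11 had 2.81, Gss 2.52 and Cth 4.46. Cth had 0.648 CPM in CAST MN, against 2.15 to 8.98 CPM in BL6 MN with a median of 5.28, so its strain order in motor neurons was opposite to that in PSC.

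The interferon genes Psmb8, Oasl2 and Gbp2 had -5.66, -4.69 and -3.51. Of the epithelial, neural and metabolic genes, Krt8 had -4.15, Sox11 -3.21, Ldhb -3.02 and Pfkm -1.63, while the p53 target Aen had 1.01 and Igf2bp2 2.18. Other genes with positive values were Klb (11.34), Stk33 (10.83), Pigp (6.95), Epha4 (4.15), Mcf2 (4.15), Lpar1 (3.95) and Mme (3.7), and those with negative values were Itga3 (-5.31), Mmp11 (-3.45), Csrp2 (-3.57), B3gat2 (-10.24), Tuba1b (-4.01) and Gm21887 (-4.35).

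Some genes stood at the ends of the range or were named from this test alone. Vnn1 (12.46) had 1.53 and 0.786 CPM in CAST PSC, against 0.585 and 0 CPM in BL6 PSC, and 0 CPM in CAST MN, against 4.37 to 36.3 CPM in BL6 MN with a median of 7.45. Clec4a1 had 11.1 and Snx20 9.6. Clca3b (-13.48) had 0 and 0 CPM in CAST PSC, against 4.17 and 5.4 CPM in BL6 PSC, and 56.9 CPM in CAST MN, against 0.668 to 8.33 CPM in BL6 MN with a median of 1.37. Gzmd had -12.59 and Spx -9.75, and both were under the filter on low counts in PSC. The sizes of these fitted values depend on levels near 0 in at least 1 group.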

How the results depend on the processing

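Calls between CAST PSC and BL6 PSC (1455, 792 higher and 663 lower) numbered 2222 in DESeq2 (1115 lower), 2682 with no filter (1416 higher, 1266 lower), 3532 in the fit of all 20 libraries (1717 higher, 1815 lower) and 794 without genes under 1 CPM in a genotype (372 higher, 422 lower). With a replicate block 2160 genes were called, 1045 of them lower. The labels do not say that equal replicate numbers pair the libraries, and the correlations of their deviations were 0.36 for CAST and BL6, 0.52 for CAST and CAS129 and -0.08 for BL6 and CAS129. RLE scaling (1425), upper-quartile scaling (1420), a filter of 10 counts (1532), the 4 CAST and BL6 libraries alone (1179), removal of genes at 0 in a genotype (1088) and GC offsets (1887) stayed within 1.5 times the count. Leaving out a library gave 226 to 2105 calls, 131 to 1281 higher and 95 to 824 lower.

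Calls between CAST MN and BL6 MN (1425) numbered 927 (518 higher) with CAST and BL6 libraries alone, and DESeq2 gave 960 lower genes, with 48.2% of its calls higher, where edgeR had 59.4%. Leaving out a library gave 1244 to 2475 calls, 682 to 1525 higher and 497 to 950 lower. CAST MN is a single library and could not be left out. The difference of the strain contrasts (1153) had 2017 calls in DESeq2 (836 higher, 1181 lower) and 577 with CAST and BL6 libraries alone (191 higher, 386 lower). Leaving out a library gave 570 to 2567 calls, 215 to 1437 higher and 355 to 1169 lower.

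Of 130 named genes called in PSC, 68 were called under every alternative that tested them (35 of these under all 17, while 33 were under the filter in at least 1 and were tested in 13 or more), 43 were lost only when a library was left out, and 19 under another setting. Genes that changed sign were not called: Tubb3 (log2 -0.00) had 0.015 with a filter of 10 counts, 0.37 with GC offsets and -0.54 to 0.37 with a library left out. Pou5f1 had -0.051 to 1.06 with a library left out. Xist (log2 -0.18) had 0.069 in the blocked fit and -0.92 to 1.19 with a library left out. The cause of these changes was not tested. With 2 libraries a group and 1 CAST MN library, genes of low counts limit what can be called.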

Other observations

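The F1 hybrid held exact zeros where both strains were expressed. Of 8449 genes with at least 10 CPM in both CAST PSC and BL6 PSC, 391 (4.63%) had 0 counts in both CAS129 PSC libraries. Of these 391, 383 had 0 counts in all CAS129 MN and 374 in 129CAS MN, another hybrid of the same subspecies, and 0 had 0 counts in both 129 MN. Between CAST PSC and BL6 PSC 24 of the 391 were called, among them Rpl13a, Tcf15 and Tdrd12. Of all genes tested 10.5% were called, and 8.13% of those at 1 CPM or more in both strains. In CAST MN 37 genes with at least 10 CPM in both stem cell strains had 0 counts.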
